A study of Mus musculus with 20 samples.

Results

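Nerve cells that release dopamine, serotonin, noradrenaline or acetylcholine can be followed in brain RNA through the genes that make and move these transmitters, and 10 such genes were followed here: Th, Ddc, Tph2, Dbh, Slc6a3, Slc6a4, Slc18a2, Chat, Slc5a7 and Slc18a3. They were chosen by name, from the mouse symbols matched to the Ensembl IDs of the table, by a rule that holds no measured value, although earlier results of these data were known when it was set. All 10 were among the 19463 genes of the table, and all 10 had a mean value high enough to be tested in every comparison.

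RNA was sequenced from whole brains of male C57BL/6J mice that were wild-type (WT) or lacked Katnal2 (KO), a relative of the microtubule-severing katanins, at postnatal day 21 (P21, 3 weeks) and day 70 (P70, 10 weeks), 5 mice for each genotype at each age. KO mice were homozygous for a frame-shifting exon deletion, made from targeted EUCOMM embryonic stem cells (Katnal2tm1a) whose cassette was first removed by Flp and whose exon was then removed by a cell-permeable Cre protein given to early embryos, so no promoter or cell type limits where the gene is lost. All mice came from a line backcrossed to C57BL/6J, and littermates of both genotypes shared cages. The comparisons ask how loss of Katnal2 and age each bear on brain transcripts.

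Tyrosine hydroxylase (Th) makes the dopamine precursor in all catecholamine neurons, and aromatic amino acid decarboxylase (Ddc) makes dopamine and serotonin from their precursors. Dopamine beta-hydroxylase (Dbh) converts dopamine to noradrenaline in cells such as those of the locus coeruleus, and tryptophan hydroxylase (Tph2) starts serotonin synthesis in the raphe nuclei. The vesicular transporter Slc18a2 (VMAT2) packs all monoamines, while Slc6a3 (DAT) and Slc6a4 (SERT) take dopamine and serotonin back up at the cell surface. Choline acetyltransferase (Chat) makes acetylcholine, Slc5a7 (CHT1) takes up choline for it, and Slc18a3 (VAChT) packs it into vesicles. The cell bodies lie in small nuclei of the midbrain, hindbrain, basal forebrain and striatum, so in whole brain their transcripts come from few cells, and fewer such cells and less RNA per cell cannot be told apart.

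The 250 bases before the RefSeq transcript start (GRCm38.p6) are shown for 5 monoamine genes whose values followed each other from mouse to mouse within a transmitter, Th, Slc6a3 and Slc18a2 for dopamine and Tph2 and Slc6a4 for serotonin. Capitals mark matches, on either strand, to 3 motifs that do not overlap here: the cyclic AMP response element TGACGTCA, the GC box GGGCGG and the TATA motif TATAAA. The windows are chr7:142899996-142900245 (minus strand), chr13:73536497-73536746 (plus), chr19:59260628-59260877 (plus), chr10:115185023-115185272 (minus) and chr11:76998347-76998596 (plus), and each is written 5′ to 3′ along its gene.
Th: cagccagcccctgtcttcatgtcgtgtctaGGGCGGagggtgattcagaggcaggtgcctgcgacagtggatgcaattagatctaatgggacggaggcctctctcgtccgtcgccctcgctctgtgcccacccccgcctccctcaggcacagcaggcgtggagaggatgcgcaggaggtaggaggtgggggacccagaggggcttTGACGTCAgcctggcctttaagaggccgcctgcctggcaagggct
Slc6a3: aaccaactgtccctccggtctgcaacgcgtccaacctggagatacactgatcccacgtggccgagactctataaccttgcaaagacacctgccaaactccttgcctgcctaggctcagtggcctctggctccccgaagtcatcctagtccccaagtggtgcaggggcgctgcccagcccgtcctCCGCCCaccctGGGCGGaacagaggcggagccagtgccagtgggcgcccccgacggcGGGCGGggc
Slc18a2: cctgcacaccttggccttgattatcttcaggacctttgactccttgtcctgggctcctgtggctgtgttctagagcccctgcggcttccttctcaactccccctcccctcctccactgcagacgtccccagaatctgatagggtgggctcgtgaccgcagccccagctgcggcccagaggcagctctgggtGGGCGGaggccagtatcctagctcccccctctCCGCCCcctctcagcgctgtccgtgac
Tph2: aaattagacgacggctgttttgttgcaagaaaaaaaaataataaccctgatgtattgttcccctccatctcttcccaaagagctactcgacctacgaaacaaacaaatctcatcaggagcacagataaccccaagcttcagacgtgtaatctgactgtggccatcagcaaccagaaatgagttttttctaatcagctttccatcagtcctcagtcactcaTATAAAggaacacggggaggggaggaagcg
Slc6a4: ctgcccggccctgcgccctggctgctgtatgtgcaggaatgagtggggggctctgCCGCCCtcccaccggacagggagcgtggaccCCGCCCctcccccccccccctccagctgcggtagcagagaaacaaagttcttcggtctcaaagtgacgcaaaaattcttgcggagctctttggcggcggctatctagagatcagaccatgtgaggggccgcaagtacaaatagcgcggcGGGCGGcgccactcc

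Among these windows, that of Th held the cyclic AMP response element, which begins 45 bases before the start, and those of Ddc, Dbh, Chat and the other members held none. Over 32851 mouse promoters of the same length, 1.55% held it. The GC box was found in 5 members (Th, Slc6a3, Slc6a4, Slc18a2 and Slc18a3), against 32.7% of all promoters, and the TATA motif in 3 members (Tph2, Ddc and Slc5a7), against 12.4%. The 10 members had 11 promoters, as Ddc had a further start, so these counts are per gene and the shares per promoter. The TATA match of Ddc lay in the window chr11:11898145-11898394 and not in chr11:11890409-11890658. In Tph2 the TATA motif begins 30 bases before the start. These are matches of letters only.

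In the GENCODE M21 annotation of GRCm38, Th spans chr7:142892752-142931128, Ddc chr11:11814101-11898144, Tph2 chr10:115078641-115185022 and Dbh chr2:27165233-27183200. The transporters lie at chr13:73536747-73578672 (Slc6a3), chr11:76998603-77032340 (Slc6a4), chr19:59260896-59296012 (Slc18a2) and chr17:54273590-54299034 (Slc5a7). Slc18a3 consists of 1 exon at chr14:32462438-32464850 and lies within intron 1 of Chat (chr14:32408203-32465989) on the same strand, an arrangement known as the cholinergic gene locus. The exons of Chat and Slc18a3 share 0 bases, so exonic reads of each can be told apart, although unspliced Chat RNA also covers Slc18a3. Antisense genes overlap Chat (Gm2990), Ddc (1700042O10Rik), Slc18a2 (Gm29261) and Slc6a4 (Gm12343). How strand was treated in counting is not given in the sources used here, so reads of those pairs may not be separated.

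Values are estimated counts normalized by the authors with DESeq2, called normalized values below. They summed to 27310523 to 28423042 in the 20 mice, which does not show sequencing depth, and depth was not estimated here. The P70 KO and P70 WT mice numbered 5 stood apart from their groups, with a median correlation to their group of 0.967 and 0.974 against at least 0.984 in the other 18 mice. Katnal2 had a normalized value of 78.1 to 96.0 in P21 KO brains and 99.3 to 115 in P21 WT brains, which did not overlap, and of 95.1 to 126 in P70 KO and 101 to 142 in P70 WT brains, which did. Its transcript outside the deleted exon can still be counted, and its difference did not pass the adjusted threshold at either age. Marker genes of striatum (7 of 7 in the table, summed value 15565 to 21968), cerebellum (5 of 5, 11593 to 17761) and olfactory bulb (4 of 4, 403 to 1092) were present as sums in every brain. Tbx21 of the olfactory bulb had a lowest value of 0.0 in P21 KO and in P70 WT brains.

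Levels of different genes were compared per kilobase of the principal transcript. Averaged over the 20 mice, Ddc stood at 228 ± 52.5 normalized units per kilobase (SD) and Th at 176 ± 43.8, followed by Slc18a2 at 104 ± 16.9, Tph2 at 86.4 ± 15.1 and Slc6a3 at 81.8 ± 34.1. Slc6a4 stood at 59.0 ± 13.6, Slc18a3 at 48.6 ± 11.6, Chat at 47.6 ± 7.62, Slc5a7 at 47.1 ± 9.66 and Dbh, last, at 31.2 ± 7.02. Ddc was above Th, and Th above Slc18a2, in 20 of 20 mice. Neighbours that did not separate were Tph2 and Slc6a3, with Tph2 higher in 8 of 20 mice, Slc18a3 and Chat (10 of 20), and Chat and Slc5a7 (8 of 20). At P21 Slc6a3 ranked 4 of 10 in both genotypes, at 103 ± 15.9 per kilobase in WT and 107 ± 16.9 in KO (n = 5 each). At P70 it ranked 5 of 10 in WT at 69.5 ± 31.3 and 7 of 10 in KO at 47.3 ± 30.9 (n = 5 each). The order depends on the length used: with the union of all annotated exons, Th came first at 136 ± 33.9 per kilobase and Chat last at 28.9 ± 4.63.

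**Figure D1:**
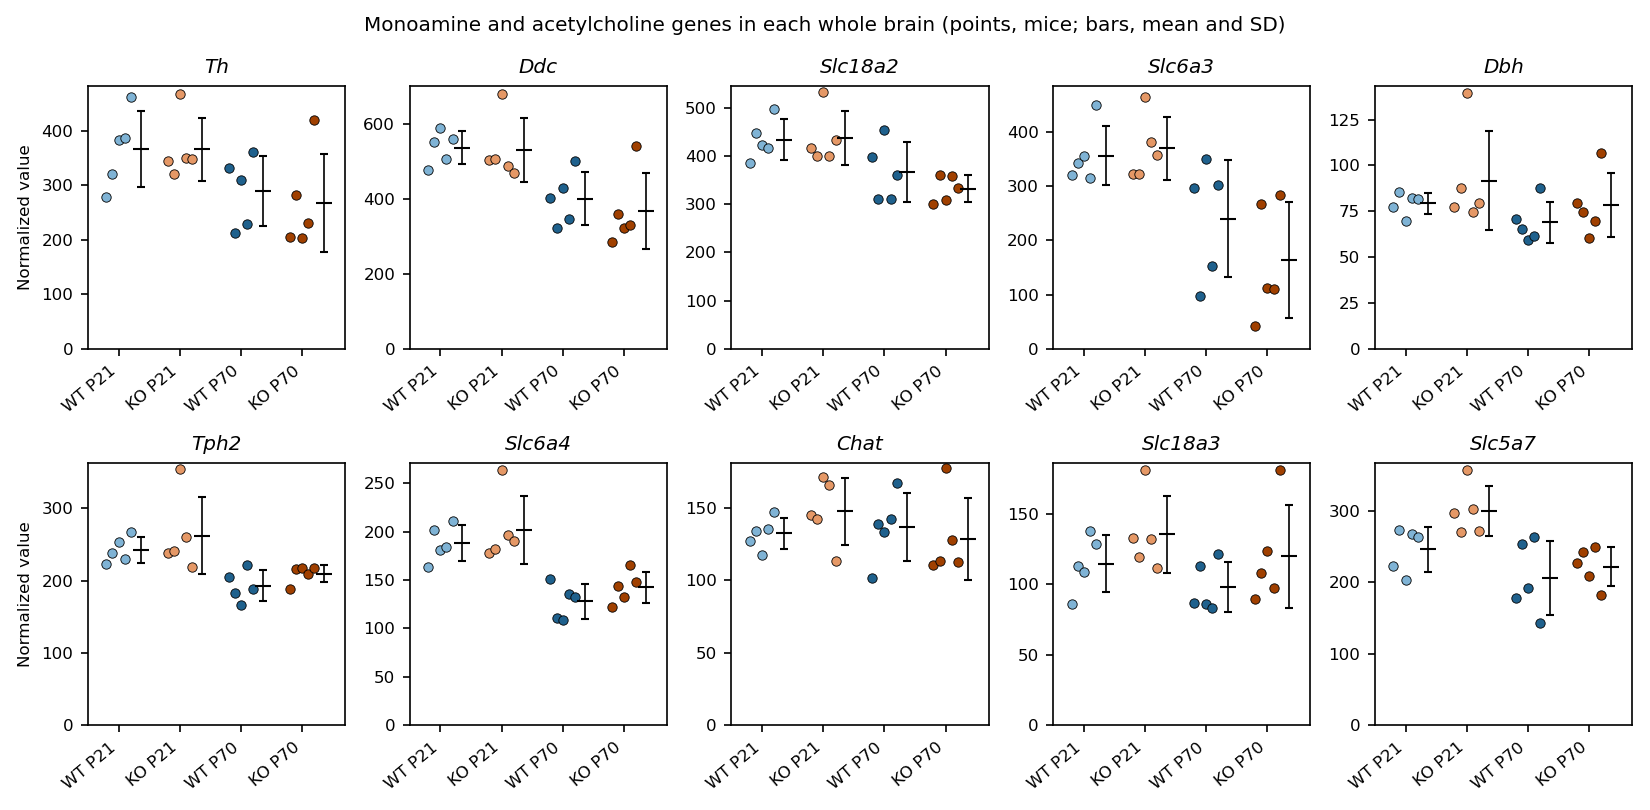
Normalized value (vertical axis, from 0) of each of the 10 genes in every mouse of the 4 groups, with points for mice and, beside them, the mean and SD of 5 mice. In P70 brains Slc6a3 spread from 42.5 to 349.8, and the highest P21 KO point in all 10 panels was the same mouse, numbered 3.

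The first question was how these genes change between P21 and P70. Nearly all stood lower in the older brain. Serotonin reuptake transporter Slc6a4 fell in both genotypes, Ddc fell in WT, and Slc6a3, Slc18a2 and Slc5a7 fell in KO brains, while no member rose. In WT mice 2 of 10 members passed an adjusted p of 0.05 (limma across all 17630 genes tested, Benjamini-Hochberg), both lower, where 4.7% of all genes were called lower and 9.32% were called in either direction. In KO mice 4 of 10 passed, all lower, where 4.53% of 17641 genes were called lower and 8.32% in either direction. Below 0 were 9 of 10 members in WT (49.8% of all genes) and 10 of 10 in KO (52% of all genes), with a median log2 fold change of -0.31 and -0.41 against 0.00 and -0.01 over all genes. The labels name no batch, so age and any difference in handling or sequencing between the ages cannot be told apart.

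Age was also tested over all 20 mice with genotype as a term, an analysis added after the values were seen. It called 7 of 10 members lower, where 13.3% of 17637 genes were called lower and 26.3% in either direction. Th, Ddc, Slc6a3, Slc18a2, Tph2, Slc6a4 and Slc5a7 passed, and Dbh (log2 fold change -0.21), Slc18a3 (-0.21) and Chat (-0.09) did not. The 7 calls stood when any 1 of the 20 mice was left out. Without the 4 mice numbered 5, those of P70 being the ones that stood apart, 9 members passed, with Dbh at -0.33 and Slc18a3 at -0.34 added and Chat at -0.13 not. Calls over all genes rose too in that setting, from 4646 to 6261 genes in either direction.

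Among the synthesis enzymes, Th had normalized values of 279, 321, 384, 386 and 461 in P21 WT brains and 331.3, 213.0, 310.0, 229.5 and 360.1 in P70 WT brains. The KO brains held 344.2, 319.8, 467.6, 350.8 and 348.9 at P21 and 204, 282, 203, 231 and 419 at P70. The ages overlapped in both genotypes, in KO only through P70 mouse 5. Its log2 fold change was -0.35 ± 0.17 (SE) in WT, with an adjusted p of 0.213, and -0.49 ± 0.19 in KO, with an adjusted p of 0.133 (limma). Over both genotypes it fell by 0.42 on the log2 scale (95% interval -0.69 to -0.15, adjusted p = 0.0202, limma).

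Ddc, the next enzyme, was lower in most older brains. Its values were 478, 552, 591, 508 and 561 in P21 WT and 403.7, 321.9, 430.2, 346.6 and 502.1 in P70 WT brains, and 4 of 5 older brains lay below every younger one. KO brains held 504, 507, 682, 489 and 471 at P21 and 285.1, 361.4, 323.5, 329.6 and 541.7 at P70, again with 4 of 5 older brains below all younger ones. In WT Ddc fell by 0.44 on the log2 scale (SE 0.12, adjusted p = 0.0322, limma), a mean of 401 ± 71.2 against 538 ± 44.7 (SD, n = 5), while in KO the log2 fold change of -0.55 ± 0.16 missed the threshold (adjusted p = 0.0569, limma). The WT call was lost when any of 7 of the 10 mice was left out, with adjusted p-values up to 0.0793 (limma).

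Tph2, which marks serotonin neurons, did not overlap between the ages in either genotype. P21 WT brains held 223.4, 237.9, 252.9, 230.3 and 266.9 and P70 WT brains 205, 183, 166, 222 and 189. In KO brains the values were 238.3, 240.7, 353.9, 260.0 and 218.3 at P21 and 188.5, 215.6, 217.5, 209.7 and 217.2 at P70. An exact permutation test of the 10 mice gave p = 0.00794 in each genotype, the smallest that 5 against 5 allows (two-sided). The log2 fold change was -0.33 ± 0.10 in WT (adjusted p = 0.0583, limma) and -0.30 ± 0.12 in KO (adjusted p = 0.168, limma), so neither passed over all genes. Over both genotypes Tph2 fell by 0.32 (95% interval -0.47 to -0.16, adjusted p = 0.00359, limma).

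Dbh, the noradrenaline enzyme and the lowest member per kilobase of principal transcript, lay between 69.9 and 139 at P21 and between 59.3 and 107 at P70. The ages overlapped in both genotypes, and its log2 fold change was -0.21 ± 0.14 in WT and -0.21 ± 0.20 in KO brains. Chat, the acetylcholine enzyme, lay between 113 and 171 at P21 and between 102 and 177 at P70. Its log2 fold change of 0.03 ± 0.13 in WT was the only member value above 0, and that in KO was -0.21 ± 0.16. Neither gene passed the threshold in an age comparison of all mice, with 95% intervals for Chat of -0.25 to 0.32 in WT and -0.55 to 0.13 in KO.

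Among the reuptake transporters, Slc6a4 had the smallest adjusted p of the 10 genes in WT and over both genotypes. P21 WT brains held 163.6, 201.1, 181.4, 183.8 and 210.5, and P70 WT brains held 151, 111, 109, 136 and 132. KO brains held 177.7, 181.9, 263.6, 196.0 and 190.0 at P21 and 122, 144, 132, 165 and 148 at P70. The ages did not overlap in either genotype. Slc6a4 fell by 0.56 on the log2 scale in WT (SE 0.12, adjusted p = 0.0107, limma), from 188 ± 18.3 to 128 ± 17.7 (SD, n = 5). In KO it fell by 0.49 (SE 0.13, adjusted p = 0.0336, limma), and over both genotypes by 0.53 (95% interval -0.70 to -0.35, adjusted p = 6.5e-05, limma). The WT call stood when any 1 of its 10 mice was left out, and the KO call was lost for 7 of 10.

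Slc6a3 had the largest decrease and the widest spread of the 10 genes. P21 WT brains held 320.1, 342.4, 355.3, 315.5 and 450.5 and P21 KO brains 322, 323, 464, 383 and 358. At P70 the WT brains held 297.2, 98.2, 349.8, 153.1 and 302.4 and the KO brains 42.5, 267.5, 112.7, 109.8 and 284.7. The P21 brains thus spanned 316 to 464, whereas 5 of the 10 P70 brains (KO mice 1, 3 and 4 and WT mice 2 and 4) lay between 42.5 and 153 and the other 5 between 267.5 and 349.8. In KO Slc6a3 fell by 1.46 on the log2 scale (SE 0.42, adjusted p = 0.0499, limma), with non-overlapping ages and means of 163 ± 107 against 370.1 ± 58.5 (SD, n = 5). In WT the log2 fold change was -0.71 ± 0.29 with an adjusted p of 0.147 (limma), and 4 of 5 older brains lay below every younger one. The KO call lay at the threshold: it was lost for 7 of 10 mice left out in turn, and the values ranged from -1.74 without P70 KO mouse 5 to -1.06 without P70 KO mouse 1.

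Slc18a2, the vesicular transporter shared by all monoamine neurons, had smaller differences than Slc6a3. WT brains held 385, 449, 423, 418 and 498 at P21 and 399.1, 310.1, 454.2, 310.3 and 360.4 at P70, and the ages overlapped. KO brains held 417.8, 399.5, 533.9, 399.9 and 433.6 at P21 and 301.1, 359.9, 307.9, 359.4 and 333.7 at P70, and did not overlap. It fell by 0.39 in KO (SE 0.10, adjusted p = 0.0308, limma), and its log2 fold change in WT was -0.25 ± 0.12 (adjusted p = 0.197, limma). The KO call was lost for 5 of 10 mice left out in turn.

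For the cholinergic transporters, Slc5a7 in KO brains was 298, 271, 357, 303 and 272 at P21 and 227.6, 242.2, 208.7, 250.0 and 182.3 at P70, without overlap. WT brains held 224, 274, 203, 268 and 263 at P21 and 178, 254, 192, 264 and 144 at P70, with overlap. Slc5a7 fell by 0.43 in KO (SE 0.11, adjusted p = 0.0329, limma), against -0.28 ± 0.16 in WT (adjusted p = 0.311, limma), and the KO call was again lost for 5 of 10 mice. Slc18a3, the vesicular transporter, lay between 86.1 and 182 at P21 and between 83.5 and 182 at P70, with log2 fold changes of -0.22 ± 0.16 in WT and -0.20 ± 0.19 in KO that did not pass the threshold. Of the cholinergic genes, the choline transporter was thus the one called.

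Without overlap between the ages were 2 of 10 members in WT (Tph2 and Slc6a4) and 5 in KO (those and Slc6a3, Slc18a2 and Slc5a7), where 5.6% and 5.52% of all genes were lower without overlap. P21 KO mouse 3 was the highest of its group in all 10 members. Without it 0 of 10 members passed in KO, with log2 fold changes of -1.38 for Slc6a3, -0.39 for Slc6a4, -0.31 for Slc18a2 and -0.37 for Slc5a7 and adjusted p-values of 0.106, 0.0584, 0.0565 and 0.0741 (limma). Without P70 KO mouse 5, in contrast, 6 members passed, with Th at -0.67 and Ddc at -0.70 (adjusted p = 0.00252 and 0.000785, limma) among them, and without P70 KO mouse 1, the lowest of its group in 7 members, only Slc6a3 did. Leaving out P70 KO mouse 5 also raised the calls over all genes, from 1467 to 3759.

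**Figure D2:**
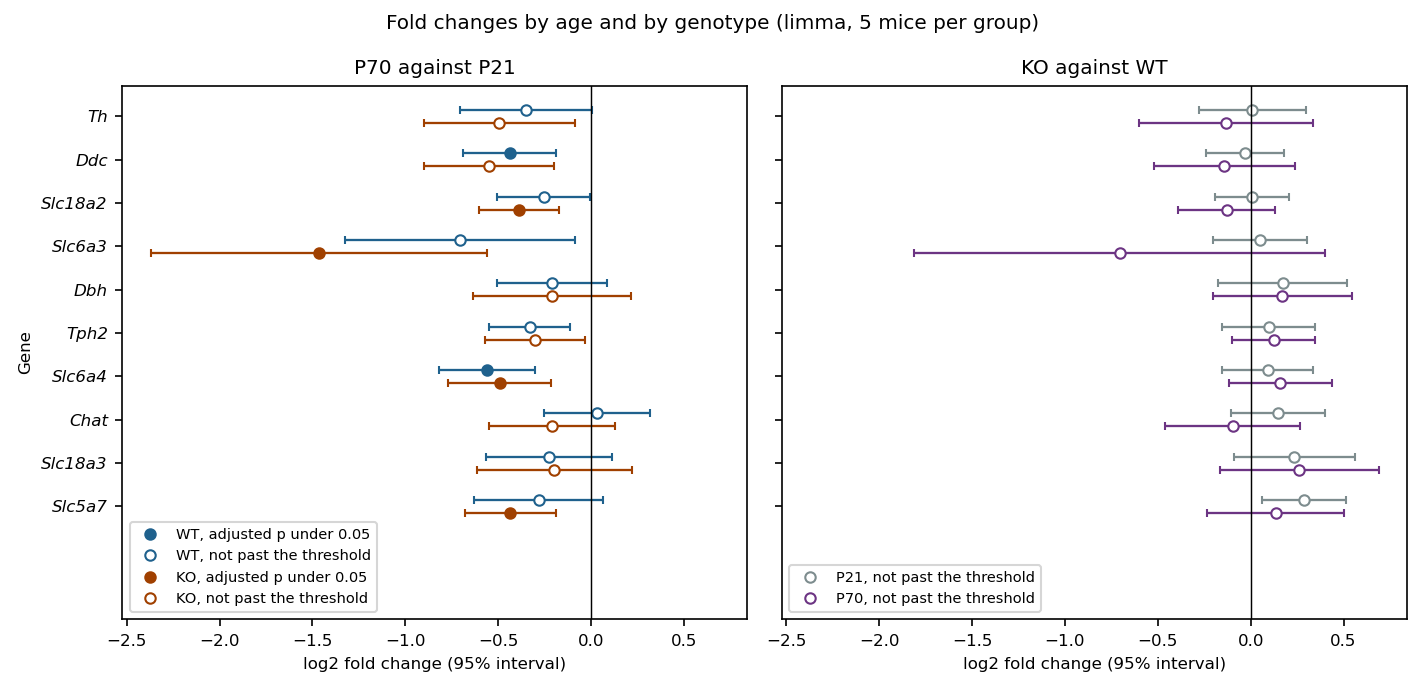
Log2 fold change (horizontal axis) of each gene for P70 against P21 in WT and KO mice (left) and for KO against WT at P21 and P70 (right), from limma with 5 mice per group; bars are 95% intervals and filled points have an adjusted p under 0.05. On the left 19 of 20 points lie below 0 and 6 are filled, and on the right none is filled.

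The second question was whether loss of Katnal2 changed these genes. At P21 and at P70, 0 of 10 members passed an adjusted p of 0.05 (limma), as 0 of 17610 and 0 of 17613 genes did (0% of genes at both ages). At an unadjusted p of 0.05, 429 genes (2.44%) passed at P21 and 199 (1.13%) at P70, and among the members Slc5a7 alone passed, at P21. No member had non-overlapping genotypes at either age, where 0.46% and 0.193% of all genes had.

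At P21, 9 of 10 members stood above 0 in KO against WT (52.5% of all genes), with a median log2 fold change of 0.09, and the cholinergic transporters Slc5a7 and Slc18a3 stood highest. The count rested on P21 KO mouse 3: without it 4 of 10 members (Slc5a7, Slc18a3, Chat and Dbh) stood above 0, and Th was at -0.08, Ddc at -0.12 and Slc18a2 at -0.07. Slc5a7 values in WT and KO brains are given above, and 3 of 5 KO brains lay above every WT brain, with a mean of 300.1 ± 35.2 against 246 ± 31.1 (SD, n = 5). Its log2 fold change was 0.29 (95% interval 0.06 to 0.51), with an exact permutation p of 0.0238 and an adjusted p of 1.00 (limma). Slc18a3 stood 0.23 higher (95% interval -0.09 to 0.56) and Chat 0.14 higher (-0.11 to 0.40). Without P21 KO mouse 3 these became 0.22 for Slc5a7, 0.12 for Slc18a3 and 0.09 for Chat. Without both P21 mice numbered 5 they became 0.35, 0.34 and 0.28. The hindbrain Hox genes, which mark the caudal end of the brain, had a summed value (14 of 17 genes) of 163 to 740.3 in P21 KO and 42.5 to 406 in P21 WT brains, highest in KO mouse 3. Of those tested, 13 of 13 stood above 0 in KO, with a median log2 fold change of 0.81. At an unadjusted p of 0.05 (limma) 4 of them passed, where 1.49% of all genes were so called higher, and 0 passed an adjusted one. Some, such as Hoxb2 (mean 9.27 in P21 WT and 22.4 in P21 KO) and Hoxb8 (9.59 and 36.9), reached the mean of 10 needed for testing only through KO brains. The count above 0 and the median thus lean upward by that choice of genes. The part of the Hox genes in the result was not tested.

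Apart from Dbh, the monoamine genes at P21 lay closer to 0. Th differed by 0.01 (95% interval -0.28 to 0.30), Ddc by -0.03 (-0.24 to 0.18), Slc18a2 by 0.00 (-0.19 to 0.20) and Slc6a3 by 0.05 (-0.20 to 0.30). Tph2 differed by 0.10 (-0.16 to 0.35), Slc6a4 by 0.09 (-0.16 to 0.34) and Dbh by 0.17 (-0.17 to 0.52). The intervals of the 4 dopamine genes thus lay within -0.28 and 0.30, the widest being those of Th and Slc6a3. Olfactory bulb genes, which mark a region with Th neurons of its own, summed to 458 to 1092 in P21 WT and 403 to 649 in P21 KO brains, and the part of this in the Th result was not tested.

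At P70 the widest interval was that of Slc6a3, whose log2 fold change was -0.71 (95% interval -1.81 to 0.40) with an exact permutation p of 0.246. The KO brains included the lowest value, 42.5 in mouse 1, and without that mouse the log2 fold change was -0.30. Without both P70 mice numbered 5 it was -0.86. Th differed by -0.14 (-0.60 to 0.33), Ddc by -0.14 (-0.52 to 0.24) and Slc18a2 by -0.13 (-0.39 to 0.13), so all 4 dopamine genes were below 0, as were 5 of 10 members and 52.2% of all genes. With 1 mouse left out, Th ranged from -0.31 without KO mouse 5 to -0.05 without WT mouse 5, and Ddc from -0.29 to -0.06 without the same mice. The serotonin genes lay on the other side, with Tph2 at 0.12 (-0.10 to 0.35) and Slc6a4 at 0.16 (-0.12 to 0.44). Dbh stood at 0.17 (-0.20 to 0.54), Slc18a3 at 0.26 (-0.17 to 0.69), Slc5a7 at 0.13 (-0.23 to 0.50) and Chat at -0.10 (-0.46 to 0.26). None of these passed even an unadjusted p of 0.05.

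Whether the change with age differed between the genotypes was tested as an interaction over the 20 mice. In that test 0 of 17637 genes (0%) passed an adjusted p of 0.05 and 296 (1.68%) an unadjusted p of 0.05 (limma), and no member passed either. The interaction estimate for Slc6a3 was -0.76 (95% interval -1.91 to 0.40, unadjusted p = 0.187, limma), from -1.04 without P70 WT mouse 2 to -0.35 without P70 KO mouse 1, and that for Chat was -0.24 (-0.67 to 0.19). The other 8 estimates lay between -0.15 and 0.07. The calls made in one genotype and missed in the other are therefore not shown to differ between genotypes.

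Spread between mice of one age set these genes apart from each other. Fold ranges here run from the lowest to the highest of the 10 mice of both genotypes. At P70 Slc6a3 varied 8.23-fold, against 1.47-fold at P21. Within the P70 groups it spanned 98.2 to 349.8 in WT and 42.5 to 284.7 in KO. Its within-group SD of 0.96 (log2) at P70 was higher than that of 98.38% of 17637 genes, whose median was 0.24. Tph2, in contrast, varied 1.34-fold at P70, with an SD of 0.13 at the 17.3 percentile. Th varied 2.07-fold and Ddc 1.9-fold at P70, and the remaining 6 members between 1.51-fold and 2.18-fold. At P21 all 10 members varied between 1.39-fold and 2.11-fold.

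In P70 brains the dopamine genes varied together. Of the 10 P70 brains, the 5 with the lowest Slc6a3 were also the 5 with the lowest Th and the 5 with the lowest Ddc. Of these 5 brains, 4 were among the 5 lowest for Slc18a2, 4 for Dbh, 3 for Slc6a4 and 2 for Tph2, and 1 to 3 for the cholinergic genes. The sharing was thus not limited to the dopamine genes. Of the 10 P21 brains, the 5 with the lowest Slc6a3 shared 4 with Th, 4 with Slc18a2 and 3 with Ddc. They shared 4 with Tph2, 4 with Slc6a4 and 2 with Dbh, so Tph2 did not stand apart at that age. The normalized values of Slc6a3 spread more than those of Th: the ratio of Slc6a3 to Th was 0.818 to 1.15 in P21 WT and 0.936 to 1.09 in P21 KO brains, but 0.461 to 1.13 in P70 WT and 0.208 to 0.95 in P70 KO brains. The whole-brain ratio of Slc6a4 to Tph2, both serotonin genes, lay within 0.717 to 0.87 at P21 and 0.606 to 0.787 at P70. Its median was 0.789 in WT and 0.754 in KO at P21, and 0.658 and 0.669 at P70.

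**Figure D3:**
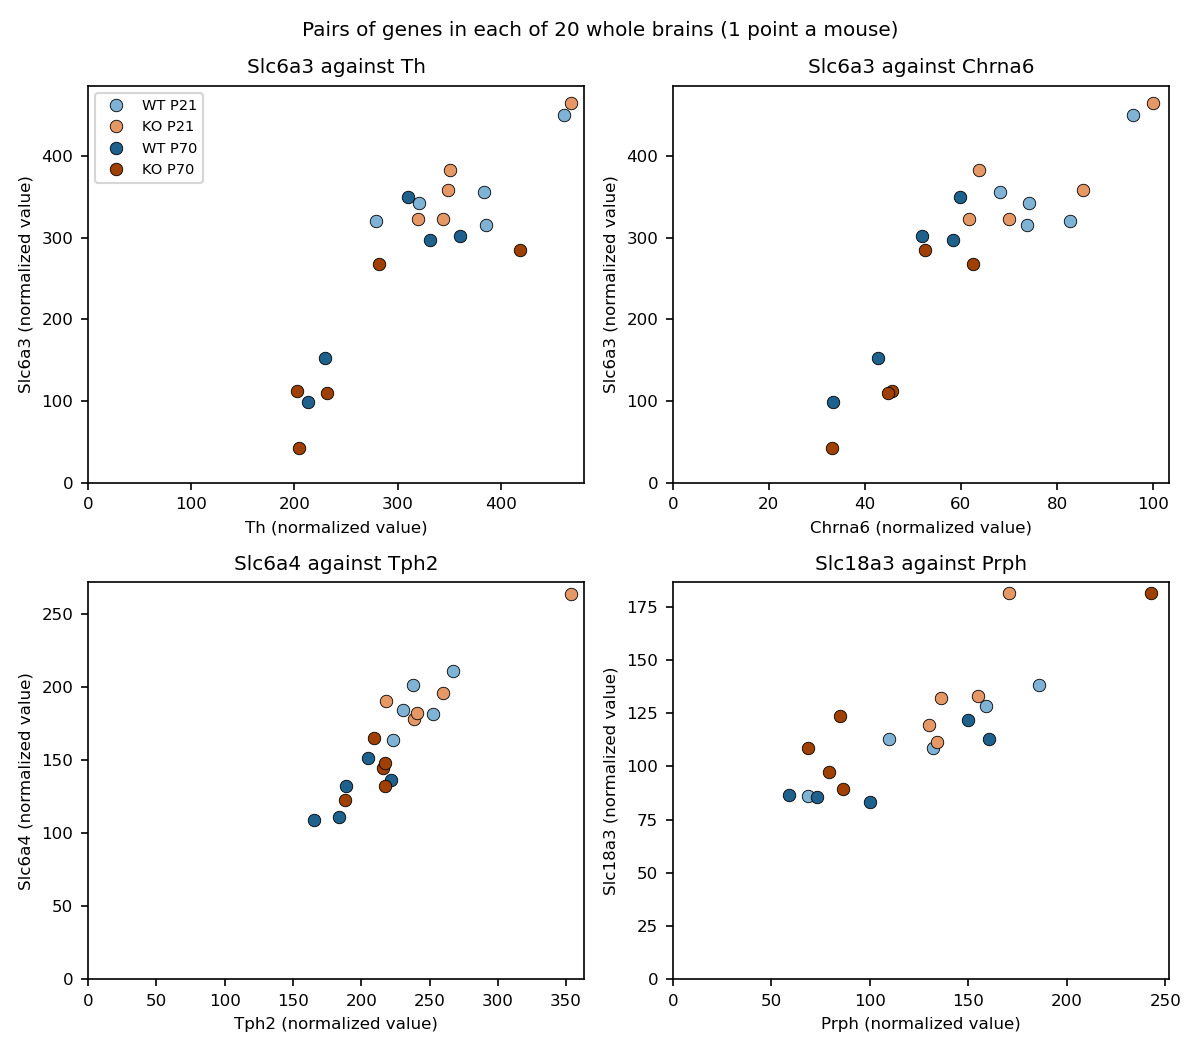
Normalized values of 4 pairs of genes, with 1 point per mouse and both axes from 0. In P70 brains low Slc6a3 comes with low Th and low Chrna6, Slc6a4 follows Tph2 at both ages, and the highest Slc18a3 values come with high Prph. Chrna6 was picked as the gene closest to Slc6a3 in these same mice, and Prph was picked after its values were seen.

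Pearson correlations of the deviations from the group means were taken for all 45 pairs over 20 mice, with p-values from permutations within groups, adjusted over the 45 pairs. Of these, 36 were positive (median r = 0.37) and 11 passed an adjusted permutation p of 0.05. The closest pair was Th and Ddc, consecutive enzymes of dopamine synthesis, with r = 0.90 (permutation p = 4e-05, adjusted p = 0.0018) and rho = 0.85 (permutation p = 0.00016, adjusted p = 0.0036), and r was 0.82 without the 2 mice farthest from the median of Th. Tph2 and Slc6a4 had r = 0.80 (permutation p = 0.00077, adjusted p = 0.0115) and rho = 0.76 (permutation p = 0.00059, adjusted p = 0.00531), with r = 0.74 without the 2 farthest mice. Th and Slc6a3 had r = 0.79 (permutation p = 0.00031, adjusted p = 0.00698) and rho = 0.85 (permutation p = 0.0001, adjusted p = 0.0036), with r = 0.75 without the 2 farthest mice. Slc6a3 and Slc18a2 had r = 0.63 (permutation p = 0.00161, adjusted p = 0.0167) and rho = 0.71 (permutation p = 0.00287, adjusted p = 0.0185), with r = 0.73 without the 2 farthest mice. Between dopamine and serotonin genes r was 0.25 for Slc6a3 and Tph2, 0.37 for Th and Tph2, 0.40 for Slc6a3 and Slc6a4 and 0.52 for Th and Slc6a4, and none of these passed after adjustment.

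Pairs with Dbh or Slc18a3 among the 11 rested on few mice. Ddc and Dbh went from r = 0.72 to 0.42, Ddc and Slc18a3 from 0.70 to 0.41 and Dbh and Slc18a3 from 0.65 to 0.31 when the 2 farthest mice were left out. Th with Dbh and with Slc18a3 went from 0.65 and 0.66 to 0.40 and 0.41. Of the 3 cholinergic genes no pair passed: r was 0.16 for Chat and Slc5a7, 0.40 for Chat and Slc18a3 and -0.08 for Slc5a7 and Slc18a3. Over the P21 mice their r was 0.67 to 0.79, and over the P70 mice -0.50 to 0.25.

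Within the ages the picture differed. Over the 10 P21 mice all 45 pairs were positive with a median r of 0.73, 25 at an unadjusted permutation p of 0.05 and 2 at an adjusted one, and over the 10 P70 mice 28 were positive with a median r of 0.13, 10 and 1 passing. P21 KO mouse 3, high in every member, and P21 WT mouse 5, the highest of its group in 6 members, lie far from the rest: Th and Slc6a3 had r = 0.81 at P21 but 0.30 without the 2 farthest mice, against 0.85 and 0.80 at P70. Tph2 and Slc6a4 held at both ages, with r = 0.88 at P21 and 0.71 at P70, and 0.81 and 0.69 without the 2 farthest mice. Th and Ddc had r = 0.72 at P21 and 0.96 at P70. Without the 4 mice numbered 5, 7 of 45 pairs passed.

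**Figure D4:**
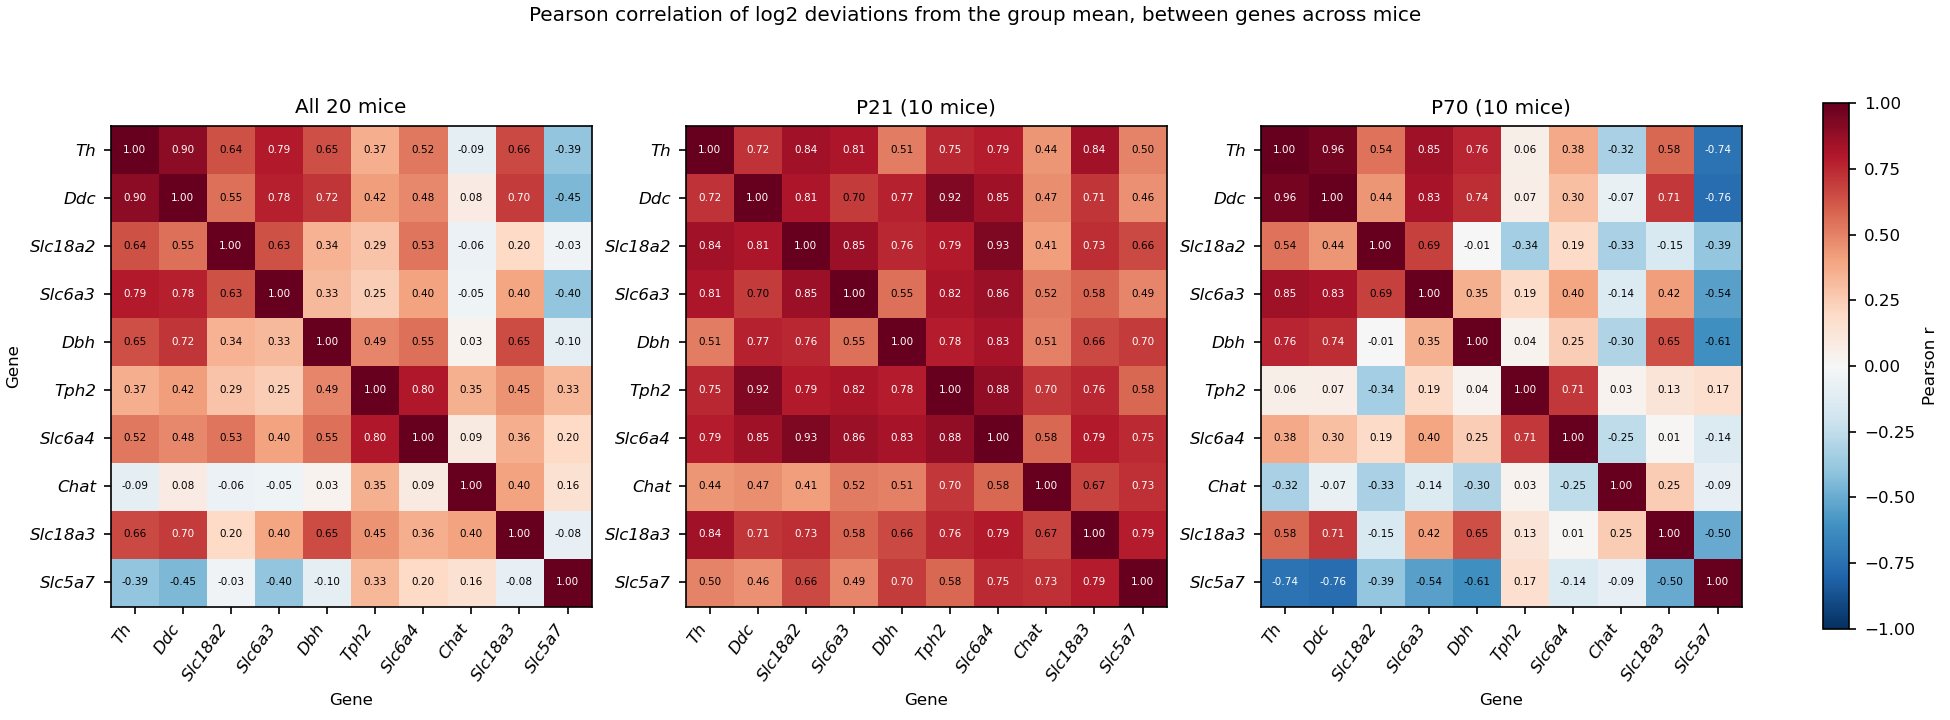
Pearson r between the log2 deviations from the group mean of each pair of genes (rows and columns), over 20 mice, the 10 P21 mice and the 10 P70 mice; red is positive and blue negative. Th with Ddc and Tph2 with Slc6a4 stay at 0.71 or above in all 3 panels, while the median over all pairs is 0.73 at P21 and 0.13 at P70.

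Among 17636 other genes, the one closest to Slc6a3 over the 20 mice was Chrna6 (r = 0.83), a nicotinic receptor subunit found on midbrain dopamine neurons, followed by Thnsl2 and Adamtsl2 (0.82 and 0.81). Chrna6 was also closest to Slc18a2 (0.77), ahead of Pon2 and Pllp. Its values were 58.3, 33.4, 59.9, 42.8 and 51.8 in P70 WT and 33.2, 62.4, 45.7, 44.8 and 52.5 in P70 KO brains, and the 5 lowest P70 brains were the same 5 as for Slc6a3. At P21 the 5 brains lowest in Chrna6 shared 3 with those of Slc6a3. As Chrna6 was picked by its r with Slc6a3 in these same mice, such sharing follows in part from that choice. Slc6a4 was the 3rd closest gene to Tph2 (0.80, after Desi1 and Commd1), and Tph2 the 2nd closest to Slc6a4, between Sar1a and Taf5l. Ddc was closest to Th (followed by Dok4 and Zfand2b), but the genes closest to Ddc were Cnp, Rhog and Zbtb7b (0.95, 0.94 and 0.93), and Cnp is an oligodendrocyte gene. Without the mice numbered 5, Chrna6 remained the closest gene to Slc6a3 (0.89), and Mog and Cnp, both of myelin, were closest to Ddc. The part of oligodendrocyte content in the Ddc values was not tested.

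For the cholinergic genes and Dbh the closest genes were of other kinds: Pigv, Ttc21a and Xkrx for Chat (0.76 to 0.72), B230354K17Rik, Gm43789 and Klhl12 for Slc5a7 (0.82 to 0.80), Rilp, Fxyd2 and Gm21926 for Slc18a3 (0.88 to 0.85), and 0610040B10Rik, Fam53a and Wnt3 for Dbh (0.90 to 0.86). With 20 mice and so many genes, high values of r arise in every list, and these are given as descriptions. The 4th closest gene to Slc18a3 was Prph (0.84), a filament gene of motor and other peripherally projecting neurons.

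Summed values of regional marker genes were set beside the members in the same way, with 70 correlations adjusted together. Only Slc18a3 passed, with the motor neuron genes Prph and Calca (r = 0.89, permutation p = 0.00011, adjusted p = 0.0077, and r = 0.81 without the 2 farthest mice) and with the hindbrain Hox genes (r = 0.78, permutation p = 0.00025, adjusted p = 0.00875, and r = 0.79 without the 2 farthest mice). Spearman's rho was 0.81 and 0.80, with an adjusted permutation p of 0.00875 and 0.00875. The Hox sums ranged from 33.0 to 740.3 over the 20 brains. Chat had r = 0.51 with the Hox sum (adjusted permutation p = 0.202), and Slc6a3 had r = 0.06 with the Hox, 0.68 with the striatal and 0.21 with the cerebellar sum (adjusted permutation p of 0.944, 0.202 and 0.84). The striatal value became 0.14 without the 2 farthest mice, and its rho was 0.20. Th had r = 0.47 with the olfactory bulb sum (adjusted permutation p = 0.202).

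Marker genes of brain regions also differed between the ages. The Hox sum was 50.5 to 241 in P70 WT and 33.0 to 389 in P70 KO brains, against 42.5 to 406 and 163 to 740.3 at P21. Of the Hox genes tested, 6 of 6 in WT and 12 of 12 in KO were below 0, with median log2 fold changes of -0.53 and -1.47. In KO 5 of the 12 passed an unadjusted p of 0.05 (limma), where 11.6% of all genes were so called lower, and in WT 0 did. With adjusted p-values 0 Hox genes were called in either genotype. Some, such as Hoxa2 in KO (mean 16.3 at P21 and 6.07 at P70), reached the mean of 10 needed for testing only through P21 brains. Hoxa4 in WT (12.4 and 8.32) did so too. The counts below 0 thus lean downward by that choice of genes, and the 2 medians are over different sets of genes. Of the 5 cerebellar genes, 5 were below 0 in KO with 3 called (Cbln1, Cbln3 and Neurod1), and 4 in WT with 1 called. Called lower over all genes were 4.53% in KO and 4.7% in WT. Of the striatal genes 6 of 7 were above 0 in WT with 1 called (Drd2), and 3 of 7 in KO with 0 called. Called higher over all genes were 4.62% in WT and 3.78% in KO. Pituitary hormone genes were high in single brains, with Gh at 1811 in P21 WT mouse 2, 1113 in P21 KO mouse 3 and 6179 in P70 KO mouse 3 and at most 348 in the other brains. The part of these markers in the age results was not tested.

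Other genes of the same pathways were mixed in direction. With age 4.62% of all genes in WT and 3.78% in KO were called higher. In the tetrahydrobiopterin pathway, which supplies the cofactor of Th and Tph2, 2 of 6 genes rose with age in each genotype and 0 fell. Qdpr, which regenerates the cofactor, rose by 0.75 in WT and 0.68 in KO (adjusted p = 0.00171 and 0.00416, limma), and Spr, the last step of its synthesis, rose by 0.39 and 0.52 (adjusted p = 0.0404 and 0.014, limma). Gch1, the first step, stood at -0.24 and -0.21 and did not pass. Of 5 monoamine breakdown genes 1 rose in each genotype, the aldehyde dehydrogenase Aldh2 (0.34 in WT and 0.37 in KO), while Maoa stood at -0.21 and -0.12 without passing.

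Of 6 genes for acetylcholine breakdown and choline supply 2 fell in each genotype, where 4.7% of all genes in WT and 4.53% in KO were called lower. Prima1, which anchors acetylcholinesterase in the membrane, fell by 0.58 in WT and 0.78 in KO (adjusted p = 0.0118 and 0.0022, limma), and Slc44a1, a general choline transporter, fell by 0.52 and 0.63 (adjusted p = 0.000177 and 0.000523, limma). The acetylcholinesterase gene Ache stood at -0.19 and -0.22 and did not pass. Of 7 other genes of amine synthesis and transport, 5 were tested (Tph1, Hdc, Slc6a2, Slc22a3 and Slc29a4) and 0 passed in either genotype. Slc6a2, which takes up noradrenaline, stood at 0.03 in WT and -0.14 in KO.

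Transcription factors that specify these neurons gave no call in the age comparisons of single genotypes (0 of 6 dopamine, 0 of 4 serotonin, 0 of 2 noradrenaline and 0 of 5 cholinergic regulators and receptors tested). Over both genotypes Nr4a2 of the dopamine list rose by 0.34 (adjusted p = 0.0462, limma), Nkx2-2 of the serotonin list fell by 0.40 (adjusted p = 0.0117, limma) and Lhx8 of the cholinergic list fell by 0.39 (adjusted p = 0.0128, limma). These were 1 of 6 dopamine, 1 of 4 serotonin and 1 of 5 cholinergic genes tested, with 0 of 2 for noradrenaline. Over all genes 26.3% were called in either direction in that fit, so these counts do not set the lists apart. Group means of Nr4a2 were 989 to 1309. The cells that carry these transcripts in whole brain were not tested, so the changes are not assigned to the neurons of each list. Lhx8, a factor of forebrain cholinergic neurons, was at 60.0, 61.0, 61.6, 49.3 and 51.4 in P21 WT and 38.1, 31.7, 44.3, 47.5 and 34.3 in P70 WT brains. Fev, the defining factor of serotonin neurons, had normalized values of 4.0 to 14.8 and was too low to test. Between genotypes 0 genes of any of these lists passed at either age. Pitx3, Foxa2, Phox2a and Pnmt were not analysed here.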

How the data were processed

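RNA of whole brain from 20 mice, 5 for each of 4 groups, was sequenced, and groups and mouse numbers were taken from the sample titles. The values of the table as deposited are a normalized signal per gene: per the submitters' processing notes and the study's methods, the authors quantified transcripts with Salmon (1.1.0), summarised them per gene with tximport on GRCm38 and normalized the estimated counts with DESeq2 (1.26.0) in R (3.6.2), which with such input may also correct for transcript length in each gene and sample. These versions are those of the processing notes, and the authors' methods name others for the last 2 tools. The sums of values per mouse, 27310523 to 28423042, follow from that scaling, so depth and its precision are unknown.

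Of 19463 Ensembl IDs, 19447 matched a symbol in the GENCODE M21 annotation of GRCm38. Log2(value + 1) of genes with a mean of at least 10 over the mice fitted was tested with limma (3.58.1, R 4.3.3, moderated with trend) for KO against WT at each age, P70 against P21 in each genotype and their interaction, with Benjamini-Hochberg adjusted p under 0.05 as the threshold. Fold changes on this scale understate those of low genes. Genotype was added to an age fit over all 20 mice after the values were seen. Exact permutation tests used all relabellings of 5 against 5. Correlations between mice used deviations from group means and 100000 permutations within groups. P-values measure the spread between these mice, whose litters are not named. The fits were tested on simulated data.

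The members and the other gene lists were chosen with earlier results of these data known. All 10 members are named, with the 3 genes closest to each by Pearson r over 20 mice, at most the 3 genes with the smallest p of each other list in each comparison, and the defining factors Fev, Pitx3, Phox2a and Lhx8. Prph as a close gene, those close without the mice numbered 5, and Gch1, Maoa, Ache, Slc6a2 and Gh where outside that rule were named after their values were seen. Alternatives were the pseudocount (0.5 and 8), the filter (none and a mean of 50), quantile normalization, equal sums, no trend, a replicate block, a single fit of all mice, a fold change over 1.5 at an unadjusted p under 0.05, and leaving out mice.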

Additional observations from a re-analysis of the deposited data

Results flagged for a closer look

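In 7 of 40 combinations of gene and group, 1 of the 5 mice lay farther from its nearest neighbour than a test for single outlying values allows, where chance alone flags about 1 in 20. Of these, 5 were the same mouse, P21 KO mouse 3, as the highest of its group. Its normalized value was 467.6 for Th (next 350.8), 682.0 for Ddc (next 506.8), 139.2 for Dbh (next 87.8), 263.6 for Slc6a4 (next 196.0) and 533.9 for Slc18a2 (next 433.6). The same mouse had the highest Hox sum of all brains, 740.3, and a Gh value of 1113, and the part of these in its values was not tested. At P70, Tph2 in KO mouse 1 was low at 188.5 (next 209.7) and Chat in KO mouse 3 was high at 177.2 (next 127.7), the brain with Gh at 6179.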

How the results depend on the processing

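Directions held in all but 9 of 600 values for a member under an alternative other than leaving out 1 mouse. Those that turned were as follows. Against WT at P21 they were Th (-0.0016 with quantile normalization) and Ddc (0.026 without the mice numbered 5), and at P70 Chat (0.019 without the mice numbered 5). Chat with age in WT became -0.0039 without the mice numbered 5 and -0.089 over both genotypes. In the interaction Dbh became 0.0068 with quantile normalization and 0.0071 with equal sums, and without the mice numbered 5 Tph2 became -0.087 and Slc18a3 -0.16. Leaving out 1 mouse at a time, KO against WT at P21 ranged from -0.084 to 0.098 for Th, -0.12 to 0.0099 for Ddc, -0.017 to 0.16 for Tph2, -0.033 to 0.14 for Slc6a3, -0.0086 to 0.13 for Slc6a4 and -0.069 to 0.055 for Slc18a2. Chat with age in WT ranged from -0.044 to 0.13, and interaction estimates from -0.032 to 0.14 for Tph2, -0.12 to 0.16 for Dbh and -0.13 to 0.14 for Slc18a3.

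Counts of calls moved more. Leaving out 1 mouse gave 912 to 3000 genes and 1 to 3 members with age in WT, 896 to 3759 genes and 0 to 6 members in KO (the most without P70 mouse 5 in each, the fewest members in KO without P21 mouse 3), and 0 to 1 genes for KO against WT at P21. Without the mice numbered 5, 2646 genes in WT, 3417 in KO and 1 for KO against WT at P70 passed. An unadjusted p under 0.05 with a fold change over 1.5 gave 74 and 84 genes for KO against WT at P21 and P70, 145 for the interaction, and 960 in WT, 977 in KO and 932 over both genotypes with age, each with 1 member. In WT 1 member passed with no trend and 1 with all 20 mice in a single fit, and over both genotypes 4646 genes and 7 members did. Of the correlations, 7 passed without the mice numbered 5, 2 within P21 and 1 within P70. With exon union lengths 1 of 10 genes (Tph2) kept its place in the order of levels.

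Mice of the same number were not shown to be paired: correlations of their deviations were -0.12 to 0.16 between ages in KO, -0.10 to 0.16 in WT, -0.0091 to 0.26 between genotypes at P21 and 0.075 to 0.71 at P70, where 4 of 5 exceeded 0.1 and the pair numbered 5, which stood apart, had the highest. With mouse number as a replicate block, 913 genes and 0 members passed with age in KO, with Slc6a3 at an adjusted p of 0.0579 and Slc5a7 at 0.0718 (limma), and 1265 genes in WT, and it changed no other call of a member. The causes of these changes were not tested. Depth is unknown, so the limit it sets on low genes such as Dbh could not be given.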
